A study of Mus musculus with 8 samples.

Results

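The glucocorticoid receptor axis was followed here in whole brain of male db/db mice through 10 genes, taken by symbol from a table of 17983 genes. They comprise the corticosteroid receptor genes Nr3c1 and Nr3c2, the receptor co-chaperone genes Fkbp5 and Fkbp4, Hsd11b1, whose product regenerates active hormone, and the hormone-induced genes Zbtb16, Sgk1, Tsc22d3, Klf9 and Errfi1. All 10 were found in the table and all 10 passed the filter on low counts. Counted reads per library numbered 34450860 to 40233361. A ketogenic diet, rich in fat and poor in carbohydrate, was fed to the mice behind 4 libraries, and normal diet to those behind the 4 control libraries. Mice of both diets carried the db/db genotype, a defect of the leptin receptor that leads to obesity and diabetes, so the comparison has no lean animal in it. Feeding ran from 9 weeks of age to 6 months, per the series description. Each library holds messenger RNA of whole brain, in which brain regions and cell types are mixed. The labels do not state that replicates are separate animals.

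Corticosterone, the main glucocorticoid of mice, enters cells and binds the glucocorticoid receptor, which waits in the cytoplasm in a complex with Hsp90 and its co-chaperones. The hormone-bound receptor moves to the nucleus, binds DNA elements and raises the transcription of genes such as Fkbp5, whose protein lowers the receptor's affinity for hormone and so closes a short feedback loop. In brain the mineralocorticoid receptor binds the same hormone with higher affinity, and it is best known from the hippocampus.

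Fkbp5 and Zbtb16 rose under the ketogenic diet and the other 8 genes did not pass. Fkbp5 was 1.84-fold and Zbtb16 1.55-fold higher, and in both genes every ketogenic library lay above every control library. The receptor genes, Fkbp4, Hsd11b1 and the induced genes Sgk1, Tsc22d3, Klf9 and Errfi1 had log2 changes between -0.14 and 0.09. The count of 2 higher and 0 lower among 10 genes was taken at an adjusted p under 0.05 in edgeR's quasi-likelihood test, with p-values adjusted over all 14895 tested genes by the Benjamini-Hochberg method. That rule called 3.3% of all tested genes higher and 3.22% lower. An unadjusted p under 0.05 also gave 2 higher and 0 lower, where 12.1% of all tested genes were higher and 12.5% lower. DESeq2's Wald test gave the same counts against 6.02% and 5.84% of all genes, and limma on filtered log2(FPKM + 1) gave them against 1.92% and 1.36%.

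The DNA around the start sites is described first, and printed for Fkbp5 and Sgk1, both hormone-induced genes. Its part in the diet results was not tested. RefSeq promoter windows of GRCm38.p6, 250 bases before to 50 after a start site, were at hand for 8 of the 10 genes, in 16 windows, but not for Nr3c1 and Zbtb16. The palindromic glucocorticoid response element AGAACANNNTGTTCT, which reads the same on both strands, was found in 3 of 32851 windows in the whole table (0.00913%). Among the 16 windows 1 held it, at a start site of Sgk1. Its 6-base arm AGAACA, searched on both strands and contained in the full element, was in 4 of the 16 windows, of Sgk1 and Tsc22d3, and in 19% of all windows. The GC box GGGCGG, a site type of Sp and Krüppel-like factors such as Klf9, was in 8 of the 16 windows and in 35.7% of all, searched on both strands. The 250 bases before each start site are printed 5′ to 3′ on the strand of the gene. Capitals mark the GC boxes for Fkbp5 (chr17:28486150-28486399, minus strand) and the response element for Sgk1 (chr10:21993640-21993889, plus strand).
Fkbp5: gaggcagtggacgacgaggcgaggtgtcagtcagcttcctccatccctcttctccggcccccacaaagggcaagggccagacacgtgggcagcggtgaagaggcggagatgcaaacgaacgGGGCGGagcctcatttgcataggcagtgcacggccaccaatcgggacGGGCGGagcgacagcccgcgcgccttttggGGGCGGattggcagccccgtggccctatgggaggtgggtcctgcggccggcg
Sgk1: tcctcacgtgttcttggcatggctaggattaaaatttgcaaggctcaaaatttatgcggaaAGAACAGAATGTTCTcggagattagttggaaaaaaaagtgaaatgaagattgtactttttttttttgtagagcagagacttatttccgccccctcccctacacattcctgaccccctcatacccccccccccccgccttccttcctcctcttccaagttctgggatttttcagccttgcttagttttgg
The Fkbp5 stretch held 3 GC boxes and neither the response element nor its arm. The Sgk1 stretch held the element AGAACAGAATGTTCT, starting 189 bases before that start site. Its window held 3 matches of the arm, counting both arms of the element. The match outside the element, near the start of the stretch, was on the other strand and left in small letters. That window also held 1 GC box, on the other strand and left in small letters. Another Sgk1 window held 4 GC boxes. A match here describes letters in a window, and no binding was measured. Elements outside the windows were not searched.

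Fkbp5 encodes an immunophilin that binds Hsp90 in the receptor complex. The gene lies on chromosome 17 from 28398753 to 28486149 (GRCm38.p6, minus strand). Its level was 98.5, 133, 122 and 107 CPM (reads of the gene scaled to a common library size with edgeR's TMM factors) in ketogenic replicates 1 to 4. In control replicates 1 to 4 it was 48.0, 66.6, 66.9 and 68.0 CPM. The lowest ketogenic library thus lay above the highest control library, and control replicate 1 was the lowest of all. The means were 115 ± 15.4 CPM in ketogenic and 62.4 ± 9.61 CPM in control libraries (SD, n = 4 each). The edgeR estimate was 0.88 ± 0.11 in log2 (SE, adjusted p = 0.000819). Among all 14895 genes the Fkbp5 change had the 5th smallest p, and among the 491 higher genes it was the 17th largest in size. The call held in each of 21 alternatives, with log2 changes of 0.78 to 0.95, the smallest without control replicate 1 (adjusted p = 0.00141). The largest adjusted p among them was 0.044, by limma on log2(FPKM + 1) of all genes without a filter. GENCODE annotates genes on the opposite strand that overlap Fkbp5, Errfi1, Hsd11b1 and Nr3c2, whose reads cannot be told apart from those of the gene where strand is not used in counting. Within Fkbp5 it also annotates transcripts on the same strand, which could share reads with it.

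Zbtb16 encodes a zinc-finger transcription repressor also known as PLZF. It lies on chromosome 9 from 48651797 to 48836225 (minus strand). Ketogenic replicates 1 to 4 had 106, 111, 114 and 103 CPM of Zbtb16, and control replicates 1 to 4 had 55.8, 67.8, 71.3 and 84.6 CPM. Ketogenic libraries were close together, with a coefficient of variation of 4.53% against 17% in control libraries. Zbtb16 rose by 0.64 ± 0.09 in log2 (SE, edgeR adjusted p = 0.00294). Leaving out any 1 library kept the call, with a log2 change between 0.54 (control replicate 1 omitted) and 0.74 (control replicate 4 omitted). The call was lost only with limma on log2(FPKM + 1) of all genes without a filter (adjusted p = 0.0569). Groups that do not overlap with ketogenic higher, as in Fkbp5 and Zbtb16, were found in 7.22% of all tested genes.

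**Figure D1:**
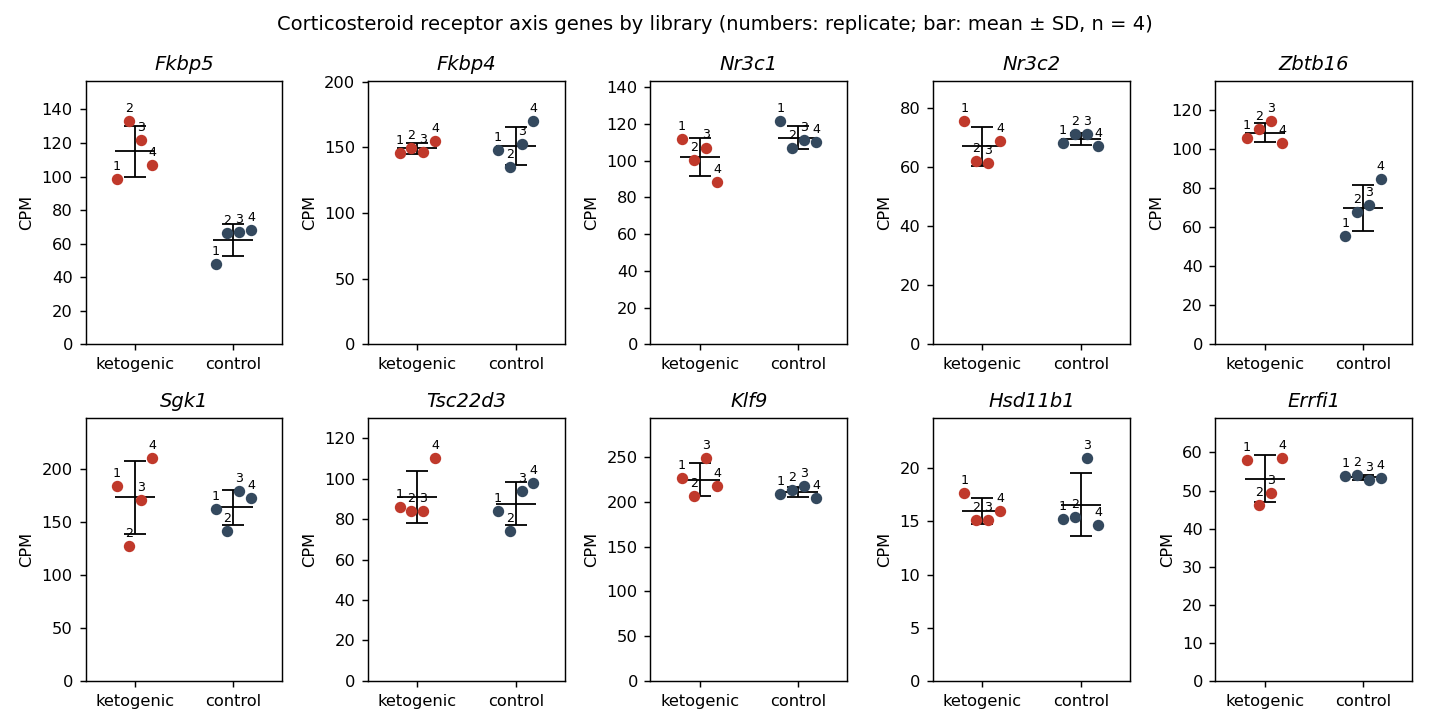
CPM of each of the 10 genes in every library, ketogenic left of control in each panel, on axes that start at 0. Small digits give the replicate and the bars the mean and SD of 4 libraries. The ketogenic points lie wholly above the control points for Fkbp5 and Zbtb16, and the groups overlap in the other 8 panels.

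Some libraries and cell type markers also differed between diets. In edgeR 3.3% of all tested genes rose and 3.22% fell, and 12.1% and 12.5% did at an unadjusted p under 0.05. DESeq2 called 6.02% higher and 5.84% lower. Of 5 erythroid markers, some with near-identical copies, 4 rose, and their summed level was 69.4 to 114 CPM in ketogenic libraries against 15.3 to 52.4 CPM in control libraries. Of 8 astrocyte markers 4 fell (Gfap, Aqp4, Aldh1l1 and Gja1), with summed levels of 4687 to 5316 CPM in ketogenic and 4823 to 5668 CPM in control libraries. Of 9 neuron markers 0 rose and 0 fell in the edgeR test (1 each way at an unadjusted p under 0.05, and 0 with DESeq2), and their summed level was 8856 to 10582 CPM in ketogenic and 9590 to 10608 CPM in control libraries. Single markers passed in 3 more lists: microglial Tmem119 rose (log2 change 0.36, adjusted p = 0.0238), while mural Rgs5 (-0.35, adjusted p = 0.0318) and oligodendrocyte Opalin (-0.64, adjusted p = 0.0424) fell. Of 7 choroid plexus markers 0 passed in the edgeR test, with a median log2 change of 0.35, 3 higher and 0 lower at an unadjusted p under 0.05, and 1 called higher by DESeq2. Their summed level was 1073 to 1380 CPM in ketogenic and 597 to 1148 CPM in control libraries. Of 6 meningeal markers 0 passed in edgeR, with a median log2 change of -0.31. At an unadjusted p under 0.05 0 of these were higher and 2 lower, and DESeq2 called 1 lower. Of 5 ependymal markers 0 passed, with a median of 0.24, and 1 was higher and 0 lower at an unadjusted p under 0.05. The part of these markers in the Fkbp5 and Zbtb16 results was not tested. Ketogenic replicate 3 stood apart on the first principal component, at 34.4 against 2.90 to 11.2 in the other ketogenic and -22.7 to -5.94 in the control libraries, and ketogenic replicate 4 held pituitary hormone RNA, with 5.21 CPM of Gh against 0 in every control library. Ketogenic replicate 2 held less Gh (0.416 CPM) and Tshb (0.269 CPM) than replicate 4. Its Cga was higher, at 0.465 CPM against 0.154 CPM in ketogenic replicate 4. Summed pituitary markers were at 0.673 to 7.80 CPM in ketogenic and 0.139 to 0.794 CPM in control libraries. Without ketogenic replicates 3 and 4 the log2 change was 0.89 for Fkbp5 (adjusted p = 0.00265) and 0.63 for Zbtb16 (adjusted p = 0.0162). Without ketogenic replicates 2 and 4, the libraries with Gh reads, it was 0.82 for Fkbp5 (adjusted p = 0.00778) and 0.66 for Zbtb16 (adjusted p = 0.0169). In whole brain, fewer cells of a type and less RNA per cell cannot be told apart.

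The receptor genes did not pass. Nr3c1, the glucocorticoid receptor gene on chromosome 18 (39410545 to 39519421, minus strand), was at 112, 100.5, 107 and 88.4 CPM in ketogenic replicates 1 to 4. It was at 122, 107, 111 and 110 CPM in control replicates 1 to 4. Ketogenic replicate 4 was the lowest of the 8 libraries and control replicate 1 the highest, with overlap between the groups. The log2 change of Nr3c1 was -0.14 ± 0.07 (SE, edgeR adjusted p = 0.223), with a 95% interval from -0.29 to 0.01. Over 21 alternatives it stayed below 0 and did not pass, from -0.19 without ketogenic replicate 1 (adjusted p = 0.141) to -0.04 without ketogenic replicates 2 and 4 (adjusted p = 0.822). The smallest adjusted p among them was 0.11. Without ketogenic replicate 4 the change was -0.08 (adjusted p = 0.506), and after correction for GC content and length it was -0.04 (adjusted p = 0.794).

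Nr3c2, the mineralocorticoid receptor gene on chromosome 8 (76898083 to 77245012, plus strand), was at 75.4, 62.0, 61.4 and 68.6 CPM in ketogenic replicates 1 to 4. Control replicates 1 to 4 had 68.1, 71.1, 71.1 and 67.1 CPM of Nr3c2. Control libraries lay inside the range of the ketogenic libraries. Its log2 change was -0.05, with a 95% interval from -0.20 to 0.09 (adjusted p = 0.687). Per unit of gene length, Nr3c2 was at 0.644 ± 0.0859 of the Nr3c1 FPKM in ketogenic libraries and at 0.603 ± 0.0438 in control libraries (SD, n = 4 each). These ratios overlapped, from 0.559 to 0.757 in ketogenic and from 0.546 to 0.648 in control libraries.

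Fkbp4 encodes the co-chaperone that favours transport and hormone binding of the receptor, where Fkbp5 opposes them. It lies on chromosome 6 (128430103 to 128438656, minus strand). Fkbp4 was at 146, 149, 147 and 155 CPM in ketogenic replicates 1 to 4, and at 148, 135, 152 and 170 CPM in control replicates 1 to 4. The groups overlapped, and both the lowest and the highest value were control libraries. Its log2 change was -0.02, with a 95% interval from -0.16 to 0.11 (adjusted p = 0.879), and turned to 0.04 without control replicate 4. The FPKM ratio of Fkbp5 to Fkbp4 was 0.383, 0.504, 0.470 and 0.390 in ketogenic replicates 1 to 4. In control replicates 1 to 4 this ratio was 0.183, 0.279, 0.248 and 0.226. Every ketogenic ratio lay above every control ratio, and in all 8 libraries Fkbp4 was the more abundant of the pair.

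Hsd11b1, on chromosome 1 (193221640 to 193264045, minus strand), was the least counted of the 10 genes, with 517 to 749 reads per library. It was at 17.7, 15.1, 15.1 and 15.95 CPM in ketogenic replicates 1 to 4 and at 15.2, 15.4, 20.97 and 14.7 CPM in control replicates 1 to 4. Control replicate 3 stood above all other libraries, and the rest lay together. The log2 change was -0.05, with a 95% interval from -0.29 to 0.19 (adjusted p = 0.818), and was 0.08 without control replicate 3. The gene overlaps Lamb3 on the opposite strand, and the labels do not state how counting treated strand, so reads of the overlap are uncertain.

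Sgk1 encodes a kinase that raises ion transport and is induced through both corticosteroid receptors. It lies on chromosome 10 (21882184 to 21999903, plus strand). Its level was 184, 127, 171 and 210 CPM in ketogenic replicates 1 to 4, and 162, 141, 179 and 172 CPM in control replicates 1 to 4. The lowest and the highest of the 8 values were both ketogenic, in replicates 2 and 4. The log2 change was 0.08 ± 0.11 (SE, edgeR adjusted p = 0.712), with a 95% interval from -0.16 to 0.32. Omission of ketogenic replicate 4 gave -0.03, and that of ketogenic replicate 2 gave 0.20 (adjusted p = 0.195).

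Tsc22d3, which encodes the leucine zipper protein GILZ, an anti-inflammatory mediator of glucocorticoids, lies on chromosome X (140539528 to 140600522, minus strand). It was at 85.9, 83.9, 84.0 and 110 CPM in ketogenic replicates 1 to 4 and at 84.0, 74.3, 94.0 and 97.9 CPM in control replicates 1 to 4. Ketogenic replicate 4 was the highest library, and the other 3 ketogenic libraries lay within the control range. The estimate for Tsc22d3 was 0.06 in log2 (adjusted p = 0.766), with a 95% interval from -0.14 to 0.26, and was -0.05 without ketogenic replicate 4.

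Klf9, a Krüppel-like transcription factor gene on chromosome 19 (23141226 to 23168129, plus strand), had the largest number of reads of the 10 genes in each library. Ketogenic replicates 1 to 4 had 226, 207, 249.1 and 217 CPM of Klf9, and control replicates 1 to 4 had 209, 214, 218 and 204 CPM. Ketogenic replicates 1 and 3 lay above the control range. In log2 its change was 0.09, with a 95% interval from -0.03 to 0.22 (adjusted p = 0.364).

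Errfi1, whose product Mig6 restrains the epidermal growth factor receptor, lies on chromosome 4 (150853796 to 150868889, plus strand). It was at 57.9, 46.2, 49.5 and 58.6 CPM in ketogenic replicates 1 to 4 and at 53.9, 54.2, 52.8 and 53.3 CPM in control replicates 1 to 4. Control libraries were nearly level, with an SD of 0.631 CPM, against 6.16 CPM in ketogenic libraries, of which 2 lay above and 2 below all controls. The log2 change was -0.01, with a 95% interval from -0.17 to 0.15 (adjusted p = 0.941).

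**Figure D2:**
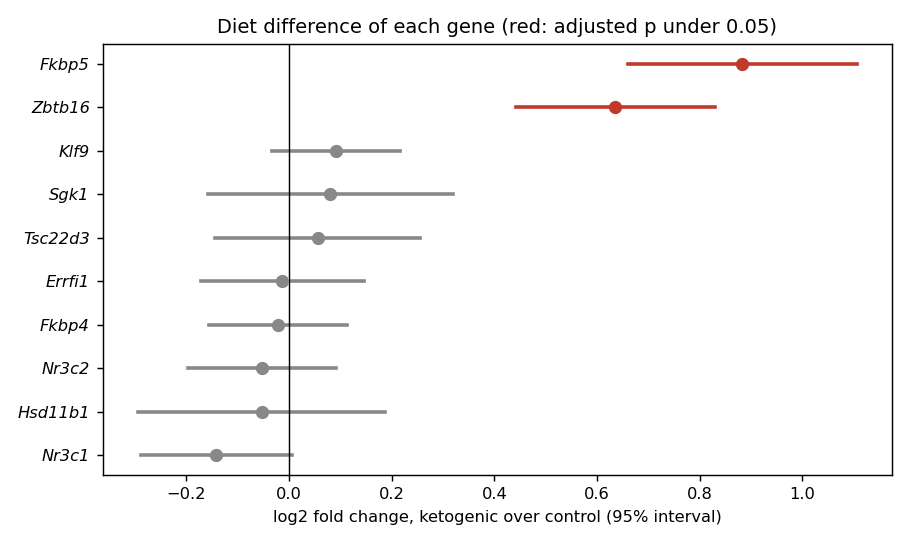
Log2 fold change of ketogenic over control for each of the 10 genes, with its 95% interval from the edgeR fit. Red marks an adjusted p under 0.05. The intervals of Fkbp5 (0.66 to 1.11) and Zbtb16 (0.44 to 0.83) lie above 0, and those of the other 8 genes include 0.

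The upper bounds of these intervals lay at 0.32 for Sgk1, 0.26 for Tsc22d3, 0.22 for Klf9 and 0.15 for Errfi1, and the lower bounds for Fkbp5 and Zbtb16 lay at 0.66 and 0.44. The difference between these genes' changes was not itself tested.

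The induced genes varied in more than 1 pattern across libraries. After the mean of each diet was subtracted from the log2 CPM, Pearson's r over the 8 libraries was 0.77 for Fkbp5 with Zbtb16, 0.77 for Sgk1 with Errfi1 and 0.75 for Sgk1 with Tsc22d3. For Fkbp5 with Sgk1 it was -0.43, and for Fkbp5 with Errfi1 -0.63. These pairs were chosen after all 45 were seen, the libraries share depth and composition effects, and the values are a description.

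Per gene length the order of levels changed little between diets. In ketogenic libraries it ran Fkbp4, Klf9, Sgk1, Fkbp5, Tsc22d3, Errfi1, Zbtb16, Nr3c1, Hsd11b1 and Nr3c2, by mean FPKM. In control libraries Fkbp5 stood below Tsc22d3 and Zbtb16 below Hsd11b1. Fkbp4 averaged 68.0 ± 3.21 FPKM in ketogenic and 68.8 ± 6.87 FPKM in control libraries, and Nr3c2, the lowest, 7.47 ± 0.774 FPKM in ketogenic and 7.72 ± 0.231 FPKM in control libraries (SD, n = 4 each). Fkbp5 averaged 29.7 ± 4.04 FPKM in ketogenic and 16.04 ± 2.58 FPKM in control libraries. In ketogenic libraries Fkbp5 overlapped both its neighbours in that order, Sgk1 and Tsc22d3. In control libraries it lay wholly below Tsc22d3 and overlapped Errfi1. Zbtb16 averaged 13.3 ± 0.448 FPKM in ketogenic libraries, wholly above Nr3c1 there. In control libraries it averaged 8.51 ± 1.52 FPKM, overlapping Hsd11b1 above it and Nr3c2 below it.

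**Figure D3:**
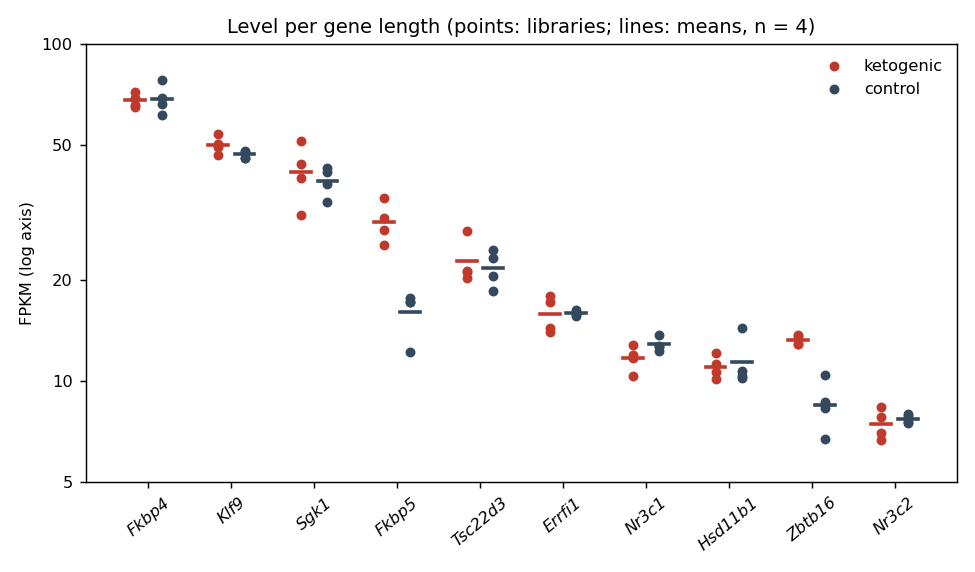
FPKM of the 10 genes on a log axis, ordered by their mean over all 8 libraries, with ketogenic libraries left of control libraries. Points are libraries and lines are means of 4. Fkbp4 is the highest gene and Nr3c2 the lowest by mean, and the colours separate for Fkbp5 and Zbtb16.

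Other genes known to be induced by glucocorticoids moved in both directions. Of 26 tested, 4 rose and 2 fell, where 3.3% of all tested genes rose and 3.22% fell. Of the list's changes 20 were above 0 and 6 below. At an unadjusted p under 0.05 there were 10 higher and 2 lower, against the 12.1% and 12.5% of all tested genes. The list's median log2 change was 0.21, where the median of all tested genes was -0.003. The list was chosen with earlier results of these data known, so these counts are a description. Which signals moved the genes of this list was not tested. Plin4, a lipid droplet coat gene, was at 12.9, 34.02, 25.1 and 35.2 CPM in ketogenic replicates 1 to 4, against 7.91, 10.96, 15.6 and 13.9 CPM in control replicates 1 to 4. Ketogenic replicate 1 lay within the control range of Plin4 (log2 change 1.15, adjusted p = 0.0181). Cdkn1a, a cell cycle inhibitor gene, rose by 0.48 in log2 and Sult1a1, a sulfotransferase gene, by 0.42. Map3k6, a stress-activated kinase gene, rose by 0.59 in log2. None of Cdkn1a, Sult1a1 and Map3k6 overlapped between the diets. Groups without overlap and with ketogenic higher were found in 7.22% of all tested genes. Dusp1, a phosphatase of MAP kinases that neuronal activity also induces, fell to 43.5, 44.6, 50.04 and 42.5 CPM in ketogenic replicates 1 to 4, against 66.5, 74.0, 74.6 and 57.9 CPM in control replicates 1 to 4. Its log2 change of -0.60 (edgeR adjusted p = 0.00245) passed in all 21 alternatives. The clock gene Per1 was 1.25-fold lower (adjusted p = 0.0187). The counts depended on single libraries, with 0 higher on omission of ketogenic replicate 2 or control replicate 1, 2 on omission of ketogenic replicate 4 and 1 on omission of control replicate 2. Dusp1 alone was lower on omission of ketogenic replicate 2, control replicate 1 or control replicate 2. Plin4, Cdkn1a, Sult1a1, Map3k6 and Per1 each missed the threshold on omission of ketogenic replicate 2 (adjusted p 0.0641 to 0.0929) or of control replicate 1 (0.0703 to 0.108). So did all but Sult1a1 on omission of control replicate 2 (0.0612 to 0.0789), Cdkn1a and Map3k6 on that of ketogenic replicate 4 (0.0514 and 0.0820), Map3k6 on that of ketogenic replicate 3 (0.0552) and Sult1a1 on that of control replicate 3 (0.0508). With ketogenic replicates 3 and 4, or 2 and 4, both omitted 0 were higher, and Plin4 was at 0.65 in log2 without replicates 2 and 4. By limma on log2(FPKM + 1) 0 of the list were higher and 2 lower, against 1.92% and 1.36% of all tested genes. By DESeq2 7 were higher and 2 lower, against 6.02% and 5.84%.

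Among chaperones of the receptor complex 2 of 16 fell, 0 rose and the median was -0.06. Of all tested genes 3.22% fell and 3.3% rose. Stip1, which links Hsp70 to Hsp90, was at 258, 240, 256 and 273 CPM in ketogenic replicates 1 to 4. In control replicates 1 to 4 it was at 331, 288, 286 and 329 CPM, with no overlap. Among all 14895 tested genes 970 had ketogenic libraries wholly below the controls. The cyclophilin gene Ppid, like Fkbp5 and Fkbp4 an Hsp90-binding co-chaperone of steroid receptors, was at 58.6 ± 3.73 CPM in ketogenic and 69.1 ± 4.02 CPM in control libraries (SD, n = 4 each, edgeR adjusted p = 0.0387). The Stip1 call (log2 change -0.27, adjusted p = 0.0238) did not hold on omission of ketogenic replicate 2 (adjusted p = 0.0808) or control replicate 1 (adjusted p = 0.0896). Ppid no longer passed when any of ketogenic replicates 1 to 3 or of control replicates 1 to 3 was omitted (adjusted p up to 0.136), or after GC and length correction (0.24). At an unadjusted p under 0.05 there were 0 members higher and 5 lower, against 12.1% and 12.5% of all tested genes. With DESeq2 there were 0 higher and 3 lower, against 6.02% and 5.84%.

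Of the other FKBP genes 1 of 11 rose and 0 fell. That was Fkbp8, a membrane-bound family member of mitochondria, at 301 ± 8.99 CPM in ketogenic and 264 ± 9.21 CPM in control libraries (SD, n = 4 each, adjusted p = 0.0349). The call was kept only without control replicate 4 among the 8 single omissions and otherwise lost, with adjusted p of up to 0.105. Nor did it hold after GC and length correction (0.219). The family median was 0.08, and 2 members were higher and 0 lower at an unadjusted p under 0.05. Of all tested genes 12.1% were higher and 12.5% lower at that p. The adjusted rule called 3.3% of them higher and 3.22% lower.

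Paralogs of the 10 genes moved in both directions. Klf13 and Klf10, Krüppel-like factor genes like Klf9, differed in opposite directions. Klf13 was at 212 ± 11.3 CPM in ketogenic and 169 ± 12.7 CPM in control libraries, and Klf10 at 27.2 ± 5.44 CPM in ketogenic and 42.4 ± 0.997 CPM in control libraries (SD, n = 4 each). The log2 change was 0.33 ± 0.06 for Klf13 (SE, edgeR adjusted p = 0.0106) and -0.64 ± 0.11 for Klf10 (SE, edgeR adjusted p = 0.0077). Neither call was lost on omission of any 1 library, but Klf13 did not pass without ketogenic replicates 3 and 4 together (adjusted p = 0.0541). Sgk3 was 1.35-fold higher (adjusted p = 0.0355), which did not hold when any of ketogenic replicates 2 to 4 or of control replicates 1 to 3 was omitted (up to 0.108). Sgk2 was at 0.358 ± 0.181 CPM in ketogenic and 1.20 ± 0.607 CPM in control libraries. Its call (adjusted p = 0.0436) did not hold when any of ketogenic replicates 1 to 3 or of control replicates 1 and 2 was omitted (up to 0.155), and DESeq2 gave Sgk2 no adjusted p. In all, 2 of 11 tested paralogs rose and 2 fell, where 3.3% of all tested genes rose and 3.22% fell.

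The remaining lists held 1 call, where edgeR's test called 3.3% of all tested genes higher and 3.22% lower. Of 16 nuclear receptor coregulators 0 rose and 1 fell, Tdg, a DNA glycosylase that also acts as a coactivator. It was at 13.0, 11.1, 13.2 and 15.2 CPM in ketogenic replicates 1 to 4 and at 20.9, 21.5, 12.5 and 20.5 CPM in control replicates 1 to 4. Control replicate 3 lay within the ketogenic range, and the Tdg call (adjusted p = 0.0441) did not hold when any of ketogenic replicates 1 to 3 or of control replicates 1, 2 and 4 was omitted (up to 0.149). Genes of steroid supply and efflux (10 tested), stress-axis peptides and their receptors (12), Sgk1 effectors (10) and the ErbB system that Errfi1 restrains (12) had 0 calls in either direction in edgeR's test. At an unadjusted p under 0.05 these 4 lists had 1 higher and 0 lower, 1 higher and 0 lower, 0 higher and 3 lower, and 0 higher and 4 lower. Of all tested genes 12.1% were higher and 12.5% lower at that p. DESeq2 called 1 lower in each of the ErbB and Sgk1 effector lists, and limma on log2(FPKM + 1) called 1 higher in the supply list. Over all tested genes DESeq2 called 5.84% lower and that limma fit 1.92% higher. Hsd11b2, which inactivates the hormone, was below the filter, at 0 to 0.122 CPM in ketogenic and 0 to 0.278 CPM in control libraries. The hormone precursor gene Pomc was at 0.906, 2.35, 0.346 and 6.93 CPM in ketogenic replicates 1 to 4 and at 1.27, 0.835, 0.504 and 0.998 CPM in control replicates 1 to 4. Its highest library, ketogenic replicate 4, was the library with the most Gh and Prl, and its log2 change of 1.55 did not pass (adjusted p = 0.139).

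**Figure D4:**
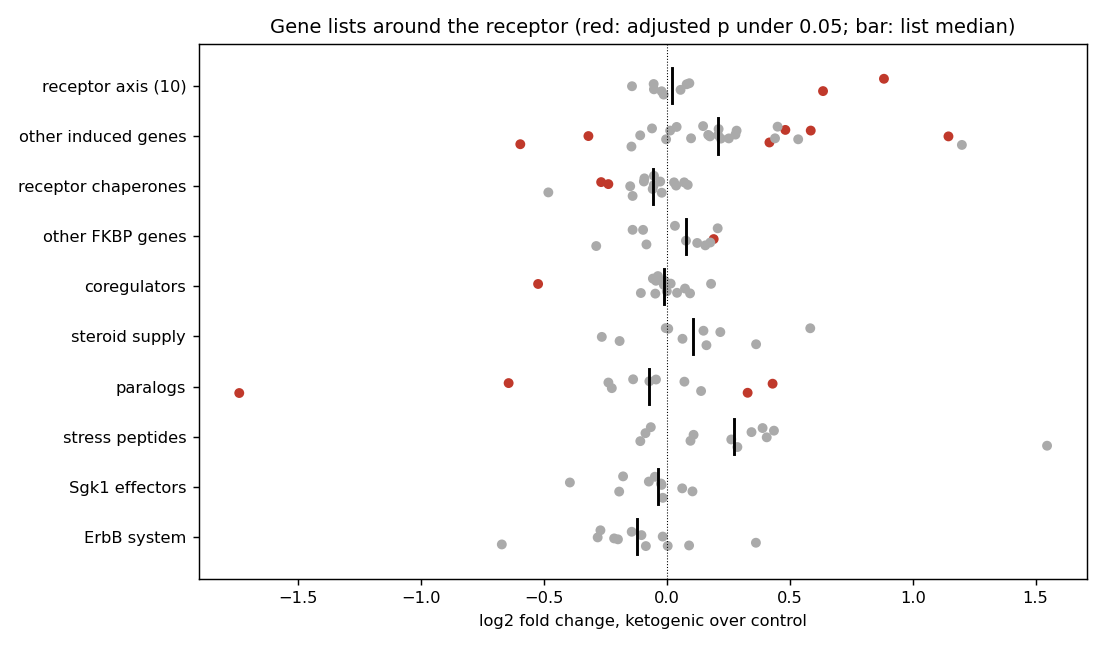
Log2 fold change of ketogenic over control for each tested gene of the lists around the receptor, with the list median as a bar and calls in red. The medians range from -0.12 for the ErbB system to 0.27 for the stress peptides, and the 10 genes of the receptor axis have a median of 0.02.

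The pattern of Fkbp5 over the 8 libraries was compared with that of 11414 genes of at least 5 CPM on average. The highest Pearson's r of log2 CPM was 0.997, for Ap2s1, an adaptor subunit gene of clathrin-coated vesicles. Itm2c (0.992), the ribosomal protein genes Rps2 (0.988) and Rps13 (0.986) and Psap (0.986), which encodes a lysosomal saposin precursor, came next. Within diets, after subtraction of each diet's mean, r was 0.93 to 0.99 for these 5 genes. Control replicate 1 was the lowest library for Fkbp5 and for each of them. It held 71.6 CPM of Ap2s1, against 82.4 to 84.8 CPM in the other controls. Without control replicate 1 r was not computed. The most negative were the sphingosine-1-phosphate receptor gene S1pr1 (-0.985), Dusp19 (-0.980) and Klf12 (-0.975). Ap2s1 was at 103 ± 4.66 CPM in ketogenic and 80.6 ± 6.07 CPM in control libraries, and S1pr1 at 142 ± 11.1 CPM in ketogenic and 204 ± 17.3 CPM in control libraries (SD, n = 4 each). These 8 genes were the extremes of many over few libraries, so such values are a description. Ap2s1, Psap, Dusp19 and Klf12 did not pass after GC and length correction (edgeR adjusted p = 0.0593, 0.14, 0.0608 and 0.0503).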

How the data were processed

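The authors deposited raw counts per gene symbol and FPKM values for 8 brain libraries, 4 ketogenic and 4 control. RNA was column purified and made into libraries with a SMARTer messenger RNA kit, per the labels' protocols. Builds GRCm38 and mm10 appear in the submitters' processing notes. Aligner, counter, strand use and annotation are not stated in the labels or file headers. Whole-number counts, as deposited, summed to between 34450860 and 40233361 per library. The deposited FPKM values equal count over length and column total, with a relative spread of at most 1.79e-07 in the implied length over the 14009 genes with at least 10 counts in each library.

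The counts were fitted with edgeR 4.0.16 (R 4.3.3, TMM factors, its filter on low counts, quasi-likelihood F test, intercept and diet). The low-count filter kept 14895 genes, with 3088 below the filter. The SE is the log2 change over the square root of F, and 95% intervals use the fit's degrees of freedom. Labels give no source beyond brain for the replicates, so p-values measure the spread between these samples. On simulated counts with these means and dispersions (14895 genes) 60 of 100 genes with a 1.5-fold change were called, as were 84 of 100 with a 2-fold change. No other genes were changed there. The real fit called 491 genes higher and 480 lower, so recovery in these data can differ.

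Members and gene lists were chosen with earlier results of these data known. Named are all members, called members of each list (at most 4 per direction), and the 5 genes most like and 3 least like Fkbp5 in log2 CPM (prior count 2). Alternatives were other scalings, no filter, DESeq2 1.42.0, limma 3.58.1 on log2(FPKM + 1) and log2(FPKM + 0.1), a replicate block, a length trend removed (loess, span 0.3) and each library left out. Removal of a GC and length trend (GC known for 98.1% of tested genes) and omission of ketogenic replicates 3 and 4 or 2 and 4 were added after seeing the data. Coordinates are RefSeq gene bounds of GRCm38.p6.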

Additional observations from a re-analysis of the deposited data

Results flagged for a closer look

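Of 76 groups of 4 libraries checked for 1 value far from the other 3, 6 were marked, and chance marks about 1 in 20. Fkbp5 in control replicate 1 was at 48.0 CPM, below the other controls at 66.6 to 68.0 CPM. Tsc22d3 in ketogenic replicate 4 was at 110.3 CPM, above the others at 83.9 to 85.9 CPM. Hsd11b1 in control replicate 3 was at 20.97 CPM, with the others at 14.7 to 15.4 CPM. Tdg in control replicate 3 was at 12.5 CPM, with the others at 20.5 to 21.5 CPM. Summed endothelium markers were at 216.9 CPM in control replicate 3, with the others at 259.1 to 263.9 CPM. Summed mural markers were at 139.1 CPM in ketogenic replicate 4, with the others at 121.8 to 123.1 CPM.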

How the results depend on the processing

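The 2 members higher, Fkbp5 and Zbtb16, passed under every alternative run except limma on log2(FPKM + 1) without a filter, where 1 (Fkbp5) passed, and 0 members were lower in each. Genes past the threshold, 491 higher and 480 lower, numbered 897 and 870 by DESeq2's Wald test, 286 and 203 by limma on log2(FPKM + 1), 331 and 229 with limma on log2(FPKM + 0.1), 35 and 29 with limma on log2(FPKM + 1) without a filter, 746 and 782 with the replicate block, 769 and 673 with the block and the length trend removed, 209 and 198 after GC and length correction, 39 and 51 without ketogenic replicates 3 and 4, and 103 and 70 without ketogenic replicates 2 and 4. With a library left out they ranged from 70 to 938 higher (without control replicates 1 and 4) and from 76 to 962 lower (the same libraries). Members of the other lists past the threshold, 7 higher and 7 lower of 124, were 11 and 9 with DESeq2, 3 and 3 with limma on log2(FPKM + 1), 3 and 4 on log2(FPKM + 0.1), 0 and 1 on log2(FPKM + 1) without a filter, 11 and 8 with the replicate block with or without the length trend removed, 5 and 4 after GC and length correction, 0 and 2 without ketogenic replicates 3 and 4, 1 and 2 without ketogenic replicates 2 and 4, and from 1 to 10 higher and 2 to 8 lower with a library left out. The cause was not tested.

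Small uncalled log2 changes turned sign, and are given with their range over the single omissions. Errfi1 was at 0.00030 with the length trend removed, 0.019 after GC and length correction, 0.0049 without ketogenic replicates 2 and 4, and -0.064 to 0.048 with a library left out, positive without ketogenic replicate 2 or 3. Sgk1 was at -0.071 without ketogenic replicates 3 and 4, and at -0.027 (without ketogenic replicate 4) to 0.203 with 1 library left out. Tsc22d3 was at -0.043 without ketogenic replicates 3 and 4, -0.044 without ketogenic replicates 2 and 4, and at -0.050 (without ketogenic replicate 4) to 0.117 with 1 left out, also negative without control replicate 2 (-0.016). Hsd11b1 ranged from -0.106 to 0.081 (without control replicate 3), and Fkbp4 from -0.074 to 0.042 (without control replicate 4). Same-numbered libraries deviated together with correlations of 0.0218 to 0.0759, 2 of 4 best with their own number. With 4 libraries per diet this check can neither show nor exclude a pairing, and the labels state none. The replicate block gave 746 genes higher and 782 lower. The 95% intervals of the 8 members that did not pass lay between -0.29 and 0.32 in log2. These intervals are not limits of detection, and what change could be called in each member was not tested. Other genes with changes of that size were called in the same fit. The 2 named here were picked for likeness to Fkbp5. Their SE was 0.055 (Itm2c) and 0.049 (Psap), against 0.059 (Klf9) to 0.113 (Hsd11b1) in the 8 members. Itm2c was called at 0.31 (edgeR adjusted p = 0.00782), also in 8 of 8 single omissions. Psap was called at 0.18 (edgeR adjusted p = 0.0424), but in only 1 of the 8.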
